A study of Mus musculus with 9 samples.

Results

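The AP-1 and BATF transcription factors described here are 10 genes, Fos, Fosb, Fosl1, Fosl2, Jun, Junb, Jund, Batf, Batf3 and Atf3, of 25160 genes in the table. The genes were chosen by name, with earlier results of these data known, and each is represented by its RefSeq row of highest total. They were measured by RNA sequencing in 9 libraries of splenic CD4+ T cells from C57BL/6 mice, 3 in each of 3 groups. Naive cells had been sorted and then cultured in wells coated with 1 µg/ml of antibody to CD3e, which engages the T cell receptor complex, in every group. Wild-type cells with 19 µg/ml of antibody to CD40L, the ligand that activated CD4+ T cells show to CD40 on other cells, made up the first group. Cells of mice lacking CD40L in T cells, whose genotype is labelled cre and whose titles read KO, with 19 µg/ml of isotype control antibody, made up the second. Wild-type cells with 19 µg/ml of the isotype antibody were the control. No label says which promoter drives the Cre, how many animals there were or how long the cells were cultured, so the p-values reflect spread among these libraries alone, and that spread may be technical.

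AP-1 is a dimer of basic leucine zipper proteins, a JUN protein paired with a FOS, ATF or BATF protein, that binds a short DNA element in genes switched on by growth and antigen signals. In T cells the antigen receptor drives it through MAP kinases, and it binds composite sites with NFAT factors at cytokine genes such as Il2. BATF proteins pair with JUN proteins in place of FOS and recruit IRF4 or IRF8 to composite sites, which several T helper lineages of the mouse require.

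Total counts over genes were 5316482 to 11226188 in anti-CD40L wild-type libraries, 9298654 to 15565711 in isotype libraries labelled KO and 8796453 to 11007159 in isotype wild-type libraries. Anti-CD40L replicate 3 had the smallest total and lay at the edge of the first principal component, at -30.46, while the other 8 libraries lay between -20.5 and 14.91. Cd40lg, the targeted gene, stood at 145, 136 and 150.2 CPM, counts scaled to the library total, in the libraries labelled KO and at 142, 154 and 189 CPM in isotype wild-type libraries, so its level did not set them apart. No source names the deleted exons, so a transcript may still be counted, this level checks nothing, and directions below rest on the label KO alone. The 7 CD4 T cell markers summed to between 3722 and 4189.8 CPM in every library. Of these markers only Lat was called in a comparison. It was lower on anti-CD40L than on isotype in wild-type cells (log2 fold change -0.47; edgeR quasi-likelihood adjusted p = 0.0189). The 7 B cell markers summed to 2.1 to 11.6 CPM in anti-CD40L, 4.47 to 15.1 CPM in libraries labelled KO and 10.7 to 33.0 CPM in isotype wild-type libraries. The 6 myeloid markers summed to 0.0 to 0.627 CPM in anti-CD40L, 2.48 to 5.96 CPM in labelled KO and 3.67 to 4.01 CPM in isotype wild-type libraries, with Cd14 at 0 in the first 2 groups. The 3 natural killer markers reached at most 0.434 CPM, and the 2 CD8 markers summed to between 6.27 and 11.9 CPM. The part of these cells in the results below was not tested.

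RefSeq promoter windows of GRCm38.p6 were held for 9 of the 10 members, and the 120 bases before the annotated start are shown for 5. Fosl2 and Atf3 are shown because their transcripts moved most, and Fos, Jun and Batf because the 250 bases before their start held a match, as did those of Atf3. Capitals mark the matches. Searched on both strands were the AP-1 site TGACTCA, the cAMP response element TGACGTCA that ATF and CREB proteins bind, its core TGACGT, which every full element also contains, the variant TGACATCA and the CArG box of serum response factor. The core and the variant were added after the letters had been read.
Fosl2, chr5:32136352-32136471, plus strand: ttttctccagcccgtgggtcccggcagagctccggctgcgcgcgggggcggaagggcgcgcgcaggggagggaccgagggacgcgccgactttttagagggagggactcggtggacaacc
Atf3, chr1:191183334-191183453, minus strand: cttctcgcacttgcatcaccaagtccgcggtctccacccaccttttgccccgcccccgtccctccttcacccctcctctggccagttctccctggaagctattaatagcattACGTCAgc
Fos, chr12:85473770-85473889, plus strand: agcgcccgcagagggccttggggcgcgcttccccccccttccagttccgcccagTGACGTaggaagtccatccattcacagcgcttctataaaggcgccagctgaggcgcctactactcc
Jun, chr4:95052223-95052342, minus strand: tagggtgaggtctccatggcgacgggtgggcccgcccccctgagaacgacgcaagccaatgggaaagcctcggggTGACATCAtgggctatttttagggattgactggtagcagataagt
Batf, chr12:85686600-85686719, plus strand: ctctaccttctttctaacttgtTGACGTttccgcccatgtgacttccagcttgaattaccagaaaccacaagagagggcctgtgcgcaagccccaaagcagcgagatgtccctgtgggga

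The core of the cAMP response element was found in Atf3, where it reads ACGTCA, the other strand, from 8 bases before the start, in Fos from 66 bases and in Batf from 98 bases before it. Of all 32851 promoter windows, 6.47% held this core. The variant TGACATCA was found in Jun only, 45 bases before the start, and 2.93% of all windows held it. None of the 9 windows held the AP-1 site, the full cAMP response element or the CArG box, which 4.46%, 1.55% and 1.47% of all windows held. Only the 250 bases before the start were searched, so a match farther upstream would be missed. The GENCODE model of the counted Fosl2 transcript starts at position -671 relative to the RefSeq start used here, which is upstream of it, and that of Jund starts 1210 bases downstream, so those windows may not be the promoters of the counted transcripts. Those of Atf3 and Batf start at positions -7 and -51, so the distances of their matches depend on the start used. The Atf3 match spans the start of its GENCODE model.

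Per kb of transcript, summed levels of Jun, Junb and Jund were 3.35 to 5.32 times the sum of the 4 FOS genes, by library. Jund stood highest in isotype wild-type libraries at 137 ± 15.4 CPM per kb (SD, n = 3), followed by Junb at 107 ± 10.4, and these 2 did not overlap. Before division by length they did overlap, with Jund at 232, 251 and 200.3 CPM and Junb at 184, 215 and 181 CPM. Fosl1, which encodes FRA-1, followed at 23.4 ± 1.39 CPM per kb. Fosl2 at 14.0 ± 1.58, Fos at 13.9 ± 3.09 and Batf at 12.7 ± 1.15 CPM per kb overlapped with their neighbours in this order. Atf3 at 2.73 ± 0.665 and Jun, which encodes c-JUN, at 2.63 ± 0.55 CPM per kb also overlapped each other. Fosb was lowest of the detected members at 1.39 ± 0.51 CPM per kb. Lengths are those of GENCODE transcripts, which for Fosl2 includes the extra upstream exon sequence.

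The order differed between groups at Fosl2 and Batf, while Atf3 came 7th in each. Batf came 4th in anti-CD40L libraries, and 6th in the other groups, where it overlapped Fos. In anti-CD40L libraries Fosl2 came 6th, at 6.94 ± 1.07 CPM per kb, below Batf at 15.3 ± 3.15 and Fos at 10.9 ± 1.32, and it overlapped Atf3 at 6.64 ± 2.68 CPM per kb. In libraries labelled KO Fosl2 came 4th, at 19.7 ± 2.46 CPM per kb, above Fos at 12.5 ± 1.65 and not overlapping it. Jund and Junb overlapped in both of these groups.

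Batf3, the BATF relative that type 1 dendritic cells need, had no count in any of the 9 libraries. A count of 0 allows up to 3 counts, which is 0.269 to 0.573 CPM in anti-CD40L libraries, 0.191 to 0.325 CPM in libraries labelled KO and 0.269 to 0.344 CPM in isotype wild-type libraries, for counting error only. Its neighbour on chromosome 1, Atf3 (191170296 to 191183333, GRCm38), was counted in every library, while Batf3 (191098414 to 191108943) was not. The other 9 members passed the filter on low counts and were tested. 

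**Figure D1:**
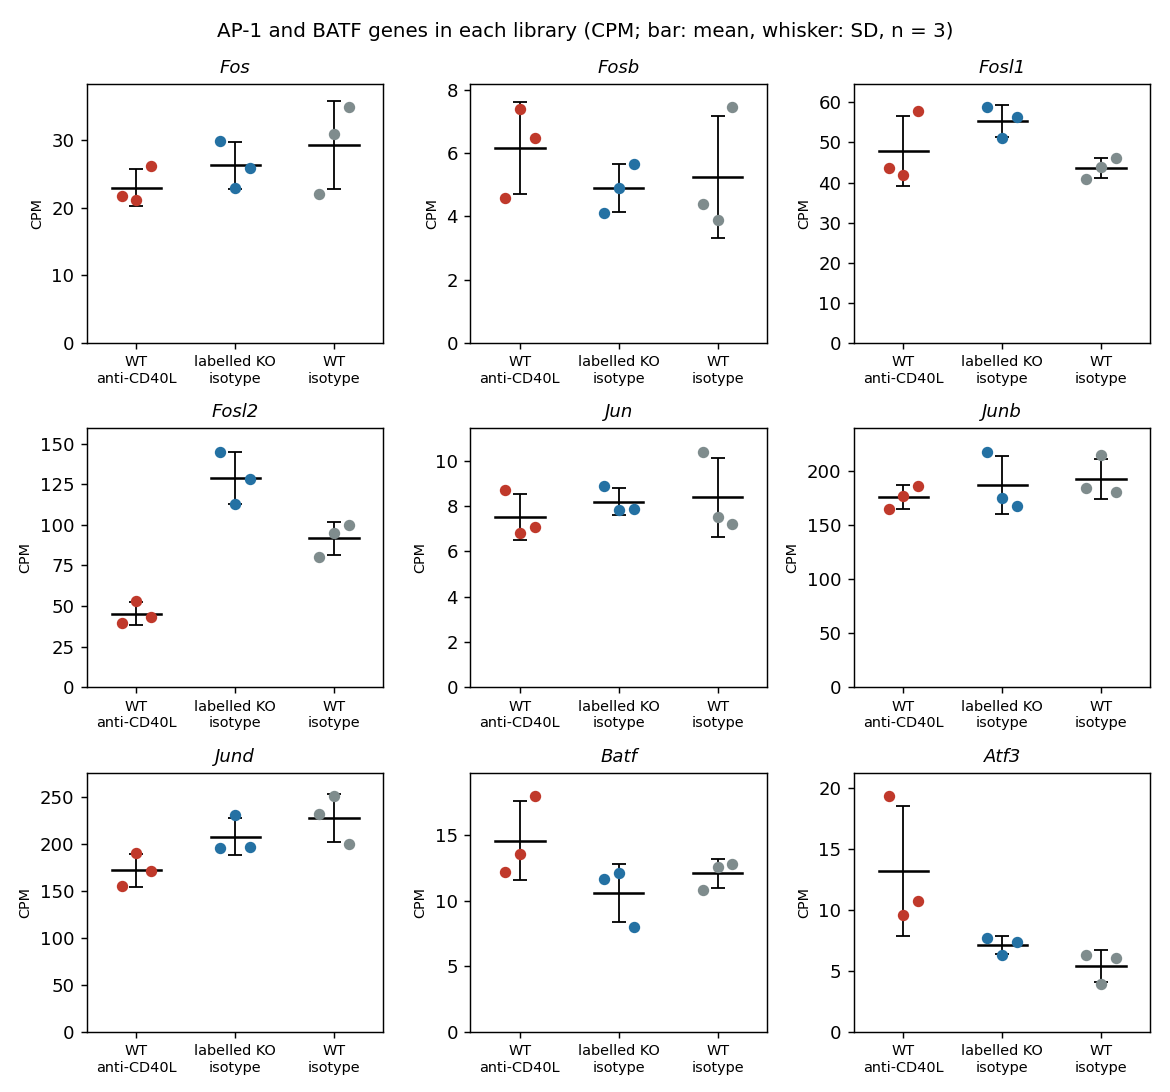
Level of each detected member in each library (vertical axis, CPM, from 0), by group (horizontal axis); points are libraries, bars the mean and whiskers the SD of 3 libraries. Fosl2 lies at 39.5 to 53.1 CPM in anti-CD40L libraries, below every other library, and Atf3 lies highest there, at 9.53 to 19.3 CPM.

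The first comparison set wild-type cells on anti-CD40L against wild-type cells on isotype and asks how binding of CD40L alters the response to CD3 stimulation. Fosl2 fell, Jund fell and Atf3 rose, and the other 6 tested members did not pass the test. These 3 of 9 tested members stand beside 9.37% of 11256 genes called in this comparison, 2.91% higher and 6.46% lower (edgeR quasi-likelihood p adjusted by Benjamini-Hochberg, BH, under 0.05). In the same 3 members the groups did not overlap, as in 32.6% of all genes tested, 15.4% higher and 17.2% lower. Since the members were chosen with earlier results of these data known, these shares do not measure an excess. Over the 9 members the median log2 fold change was -0.14, and over all genes tested it was -0.01.

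Fosl2 (NM_008037, chr5:32136472-32157840, GRCm38) encodes FRA-2, a FOS relative that activates or represses according to its partner. It was at 39.5, 53.1 and 43.4 CPM in anti-CD40L libraries. It was at 80.1, 94.7 and 100.0 CPM in isotype wild-type libraries, so each anti-CD40L library lay below each control. The log2 fold change was -1.01 (SE 0.13, 95% interval -1.3 to -0.72), 2.02-fold lower (edgeR quasi-likelihood adjusted p = 0.00046). Of all genes tested, 4.9% had a lower log2 fold change. The call held in all 17 alternatives, with log2 fold changes of -1.15 to -0.91 and BH-adjusted p from 5.03e-16 to 0.00345. Without anti-CD40L replicate 3, the shallowest library, the log2 fold change was -0.98. In bulk RNA, fewer cells with a transcript and less of it per cell cannot be told apart.

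Jund (NM_010592, chr8:70697739-70700616) encodes a JUN protein known to restrain proliferation of mouse T cells. It was at 155, 190.0 and 171 CPM in anti-CD40L libraries. In isotype wild-type libraries it was at 232, 251 and 200.3 CPM, above each anti-CD40L library. Jund fell by 0.41 on the log2 scale (SE 0.11, 1.33-fold lower; edgeR quasi-likelihood adjusted p = 0.0318). This call was lost without anti-CD40L replicate 1 or 3 or isotype wild-type replicate 1 or 2, at edgeR quasi-likelihood adjusted p = 0.12, 0.0618, 0.101 and 0.137, and the range over all alternatives was 0.00119 to 0.137.

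Atf3 (NM_007498) encodes a stress-induced ATF protein that pairs with JUN proteins. It was at 19.3, 9.53 and 10.7 CPM in anti-CD40L libraries. It was at 6.27, 3.9 and 6.08 CPM in isotype wild-type libraries, all below the anti-CD40L values, of which replicate 1 stood far above the others. The log2 fold change was 1.3 (SE 0.29, 2.46-fold higher; edgeR quasi-likelihood adjusted p = 0.0154), and 99.6% of genes tested had a lower one. The call was lost without anti-CD40L replicate 1, at 0.9 (edgeR quasi-likelihood adjusted p = 0.0958), or without isotype wild-type replicate 2, at 1.1 (edgeR quasi-likelihood adjusted p = 0.0713). Over all alternatives that p ran from 3.85e-05 to 0.0958. Counts behind it were few, 365 over the anti-CD40L libraries and 164 over the isotype wild-type libraries.

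Fos, which encodes c-FOS, the transient product of fresh receptor signals, was at 21.7, 21.1 and 26.2 CPM in anti-CD40L libraries. In isotype wild-type libraries it was at 22.1, 30.9 and 34.9 CPM, so the groups overlapped. Its log2 fold change of -0.36 (95% interval -0.74 to 0.03) did not pass the test (edgeR quasi-likelihood adjusted p = 0.22). Batf, which encodes the partner of IRF4, was at 12.2, 13.6 and 18.0 CPM in anti-CD40L libraries. It was at 10.8, 12.6 and 12.8 CPM in isotype wild-type libraries, and the groups overlapped. The log2 fold change of Batf was 0.25 (95% interval -0.21 to 0.71; edgeR quasi-likelihood adjusted p = 0.48).

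Junb, a JUN protein that T helper differentiation uses with BATF, averaged 176 ± 10.8 CPM in anti-CD40L and 193 ± 18.7 CPM in isotype wild-type libraries (SD, n = 3 each), with a 95% interval of the log2 fold change of -0.37 to 0.09. Jun averaged 7.52 ± 1.03 CPM in anti-CD40L and 8.38 ± 1.75 CPM in isotype wild-type libraries (interval -0.63 to 0.33). Fosl1 averaged 47.8 ± 8.75 CPM in anti-CD40L and 43.6 ± 2.58 CPM in isotype wild-type libraries (interval -0.15 to 0.4). Fosb, a FOS gene induced like Fos by fresh signals, averaged 6.16 ± 1.45 CPM in anti-CD40L and 5.25 ± 1.93 CPM in isotype wild-type libraries (interval -0.44 to 0.91). None of these 4 passed the test, with BH-adjusted p between 0.44 and 0.709 (edgeR quasi-likelihood test).

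**Figure D2:**
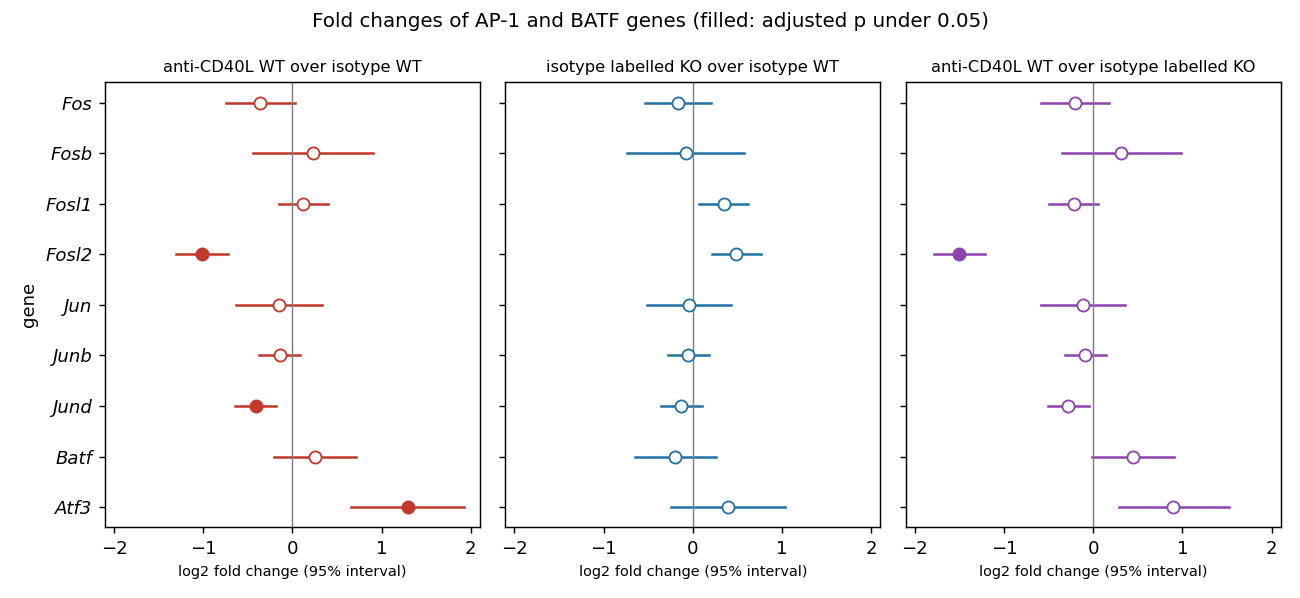
Log2 fold change of each tested member (rows) in the 3 comparisons (panels), with lines for the 95% interval and filled points where the adjusted p was under 0.05. Fosl2 lies at -1.01 in the first and -1.5 in the third comparison, and no member is filled in the comparison of libraries labelled KO with wild type.

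The second comparison set isotype libraries labelled KO against the same isotype wild-type libraries and asks what loss of CD40L does without its antibody. None of the 9 tested members was called, where 0.0% of 11256 genes were called. An unadjusted edgeR quasi-likelihood p under 0.05 was found in 5.77% of genes and in 2 members, Fosl2 and Fosl1. DESeq2 called 39 genes and no member, limma-voom with quality weights 38 and no member, and edgeR without the filter 102 with 1 member, Fosl2. The groups did not overlap in 3 members, Fosl2, Fosl1 and Atf3, all higher in the libraries labelled KO. Of all genes tested 15.2% did not overlap, 7.61% higher and 7.62% lower.

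Fosl2 was at 145, 113 and 128 CPM in the libraries labelled KO, each above the isotype wild-type values of 80.1, 94.7 and 100.0 CPM. Its log2 fold change was 0.49 (SE 0.13, 95% interval 0.22 to 0.76; edgeR quasi-likelihood unadjusted p = 0.00191 and BH-adjusted p = 0.461). Over the alternatives the BH-adjusted p ran from 0.00528, in edgeR without the filter, to 1.0. Fosl1 was at 58.8, 51.0 and 56.3 CPM in the libraries labelled KO and at 40.9, 43.9 and 46.0 CPM in isotype wild-type libraries. The log2 fold change of Fosl1 came to 0.35 (SE 0.13; edgeR quasi-likelihood unadjusted p = 0.0164 and BH-adjusted p = 0.777). Atf3 was at 7.69, 6.29 and 7.38 CPM in the libraries labelled KO, above the 6.27, 3.9 and 6.08 CPM of isotype wild-type libraries by a narrow gap (log2 fold change 0.39, SE 0.3; edgeR quasi-likelihood adjusted p = 0.935).

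The other 6 members overlapped between these groups. Fos averaged 26.3 ± 3.48 CPM in the libraries labelled KO and 29.3 ± 6.52 CPM in isotype wild-type libraries (SD, n = 3 each). Batf averaged 10.6 ± 2.24 CPM in the libraries labelled KO and 12.1 ± 1.1 CPM in isotype wild-type libraries. Means in the libraries labelled KO were 187 ± 26.7 CPM for Junb, 208 ± 20.0 for Jund, 8.2 ± 0.593 for Jun and 4.9 ± 0.772 for Fosb. The log2 fold changes of these 6 lay between -0.2 and -0.04, and their 95% intervals reached from -0.74 to 0.58.

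The third comparison set anti-CD40L wild-type libraries against isotype libraries labelled KO, which is also the test of the difference between the first 2 effects, since those share the isotype wild-type libraries. It shares its libraries with both, so the comparisons are not independent of each other. Fosl2 was the member called, at 39.5, 53.1 and 43.4 CPM in anti-CD40L libraries, against 145, 113 and 128 CPM in libraries labelled KO. The log2 fold change was -1.5 (SE 0.13, 95% interval -1.79 to -1.21), 2.83-fold lower (edgeR quasi-likelihood adjusted p = 3.6e-05). This was the 11th smallest p of 11256 genes, of which 6.83% were called, 1.79% higher and 5.04% lower. The call held in all 17 alternatives, with log2 fold changes from -1.64 to -1.39 and BH-adjusted p from 4.06e-35 to 0.000464.

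Groups did not overlap in 4 members in this comparison, as in 26.2% of all genes tested, 10.3% higher and 15.9% lower. Besides Fosl2 these were Jund, lower in anti-CD40L, and Atf3 and Batf, higher in anti-CD40L. Atf3 was at 19.3, 9.53 and 10.7 CPM in anti-CD40L libraries against 7.69, 6.29 and 7.38 CPM in libraries labelled KO, a log2 fold change of 0.9 (SE 0.28; edgeR quasi-likelihood adjusted p = 0.0756). DESeq2, edgeR without the filter and limma-voom with quality weights called Atf3, with BH-adjusted p = 0.0365, 0.00884 and 0.0174, and so did edgeR without anti-CD40L replicate 2, at 0.0403, within 0.00884 to 0.317 over all alternatives. Batf was at 12.2, 13.6 and 18.0 CPM in anti-CD40L libraries against 11.7, 12.1 and 8.02 CPM in libraries labelled KO (log2 fold change 0.45, SE 0.21; edgeR quasi-likelihood adjusted p = 0.235). Jund had a log2 fold change of -0.28 (SE 0.11; edgeR quasi-likelihood adjusted p = 0.147), which limma-voom with quality weights called at 0.0495, the lowest of a range up to 0.491. The remaining 5 tested members had log2 fold changes between -0.22 and 0.31, and none was called.

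The make-up of the FOS group, from the same counts, also differed between libraries. Of the summed FOS-family transcripts per kb, Fosl2 held 14.8%, 19.1% and 12.8% in anti-CD40L libraries, 32.1%, 30.3% and 30.9% in libraries labelled KO and 26.7%, 27.0% and 26.2% in isotype wild-type libraries. No library of one group overlapped another group. Each of the 3 pairings had p = 0.1 by the two-sided exact permutation test, the smallest that 3 against 3 libraries can give. Fosl1 held 56.6% ± 3.57 in anti-CD40L, 47.1% ± 1.25 in labelled KO and 44.6% ± 2.9 in isotype wild-type libraries (SD, n = 3 each). Fos held 24.2% ± 0.843 in anti-CD40L, 19.7% ± 0.76 in labelled KO and 26.2% ± 2.86 in isotype wild-type libraries. The FOS-family sum was 45.1 ± 5.86 CPM per kb in anti-CD40L libraries, 63.1 ± 6.12 in libraries labelled KO and 52.7 ± 6.39 in isotype wild-type libraries.

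The JUN family was nearly all Junb and Jund, with Jun at 1.17% ± 0.249, 1.12% ± 0.0731 and 1.07% ± 0.239 of its sum in anti-CD40L, labelled KO and isotype wild-type libraries. Jund held 50.8% ± 2.13 in anti-CD40L and 55.5% ± 1.56 in isotype wild-type libraries, without overlap (two-sided exact permutation p = 0.1). The JUN sum was 203 ± 14.1 CPM per kb in anti-CD40L, 231 ± 15.1 in labelled KO and 246 ± 24.6 in isotype wild-type libraries. The ratio of the JUN to the FOS sum was 4.53 ± 0.506 in anti-CD40L, 3.68 ± 0.45 in labelled KO and 4.73 ± 0.812 in isotype wild-type libraries, and no pairing of groups reached a two-sided exact permutation p below 0.2.

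**Figure D3:**
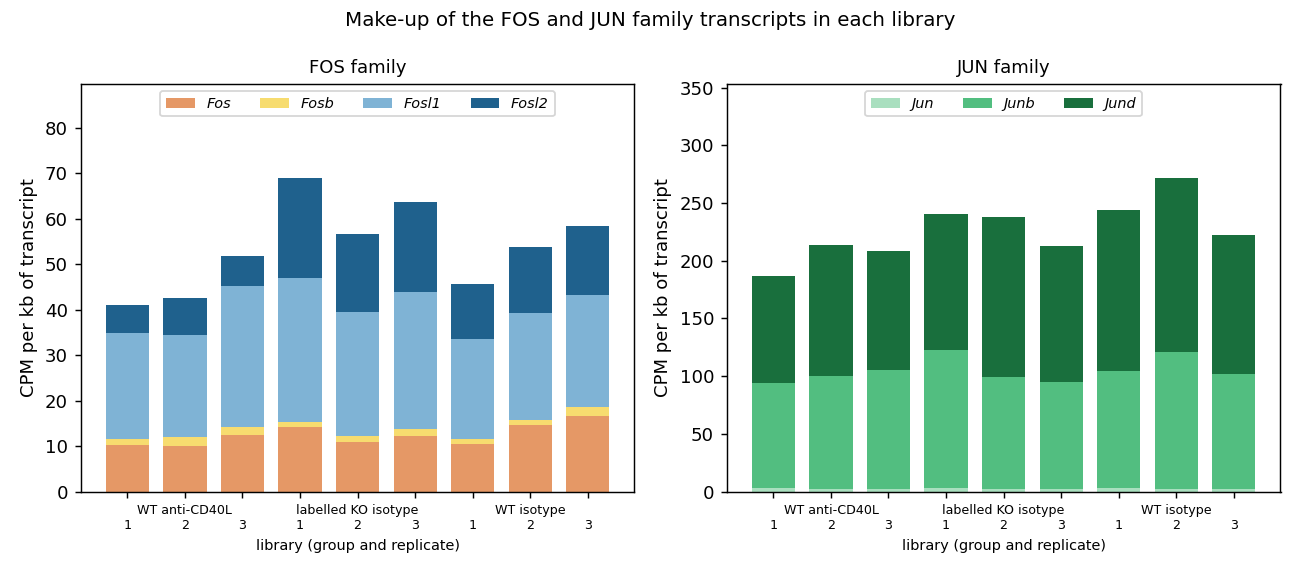
Stacked transcript levels of the FOS family (left) and the JUN family (right) in each library (horizontal axis, group and replicate), in CPM per kb of transcript from 0. The Fosl2 segment is 12.8% to 19.1% of the FOS sum in anti-CD40L libraries and 26.2% to 32.1% in the others, and Jun is a thin segment in every library.

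Genes with a profile most like that of a called member were found by the mean absolute difference of centred log2 CPM over the 9 libraries, among genes averaging at least 10 CPM. Nearest to Fosl2 were Sema7a, a semaphorin gene, at 0.0921, Nr4a2, a nuclear receptor gene induced by receptor signals, at 0.0949, and Bach1, a repressor of the same zipper class, at 0.116. The median over 8207 candidates was 0.579. Sema7a stood at 70.8 ± 12.1 CPM in anti-CD40L, 193 ± 28.4 in labelled KO and 163 ± 30.3 in isotype wild-type libraries (SD, n = 3 each). Nr4a2 stood at 74.4 ± 8.07 CPM in anti-CD40L, 201 ± 18.3 in labelled KO and 132 ± 15.7 in isotype wild-type libraries. Nearest to Jund were Sap30l, Gpr83 and Lime1, at 0.0594 to 0.0646. The nearest to Atf3, Bhlhe40, Oxnad1 and Lad1, were farther off, at 0.215 to 0.218. Bhlhe40, a transcription factor gene of activated T cells, stood at 127 ± 16.6 CPM in anti-CD40L, 64.5 ± 6.99 in labelled KO and 57.9 ± 10.9 in isotype wild-type libraries.

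Among other zipper factors that can pair with AP-1 proteins or compete for their sites, 28 of 32 listed were tested. On anti-CD40L against isotype in wild-type cells 2 fell and none rose, near the 9.37% of all genes called, with a median log2 fold change of -0.01. Bach1 was at 31.3, 44.2 and 33.8 CPM in anti-CD40L libraries and at 72.2, 92.0 and 85.9 CPM in isotype wild-type libraries, with no overlap. Its log2 fold change came to -1.19 (SE 0.13; edgeR quasi-likelihood adjusted p = 0.000174). Nfe2l2, the oxidative stress factor NRF2 that BACH1 opposes at shared sites, averaged 51.3 ± 2.18 CPM in anti-CD40L and 67.1 ± 3.08 CPM in isotype wild-type libraries (log2 fold change -0.39, SE 0.09; edgeR quasi-likelihood adjusted p = 0.0204). That call was lost without anti-CD40L replicate 1 or any 1 isotype wild-type library, and its BH-adjusted p ran from 0.00303 to 0.0907 over the alternatives. Against the libraries labelled KO, Bach1 fell by 1.41 and Nfe2l2 fell by 0.36 on the log2 scale (edgeR quasi-likelihood adjusted p = 5.83e-05 and 0.0319). The Nfe2l2 call was lost there in 11 of 17 alternatives, among them each library left out except anti-CD40L replicates 2 and 3, with BH-adjusted p from 0.00736 to 0.129. Batf2 had no count, and Jdp2, a repressor that pairs with JUN proteins, had at most 0.448 CPM in a library, so neither was tested.

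In the MAP kinase cascade upstream of AP-1, all 28 listed genes were tested, and 3 fell and none rose on anti-CD40L against isotype in wild-type cells, with a median of 0.0. These 3 of 28 are close to the 9.37% called over all genes in this comparison. Rasgrp1, the RAS activator that diacylglycerol recruits after T cell receptor engagement, was at 188, 178 and 165 CPM in anti-CD40L libraries. It was at 300.1, 230.3 and 264 CPM in isotype wild-type libraries, all higher (log2 fold change -0.58, SE 0.1; edgeR quasi-likelihood adjusted p = 0.0025). Map2k3, an activator of p38, fell by 0.49, and Map3k3, a kinase farther up the cascade, fell by 0.60 (SE 0.12 and 0.15; edgeR quasi-likelihood adjusted p = 0.0202 and 0.0254). The Map2k3 call was lost without anti-CD40L replicate 1 or isotype wild-type replicate 2 or 3, with BH-adjusted p from 1.95e-05 to 0.094 over the alternatives. That of Map3k3 was lost without anti-CD40L replicate 3 or isotype wild-type replicate 1 or 2, with BH-adjusted p from 1.88e-05 to 0.121, and against the libraries labelled KO the log2 fold change of Map3k3 was -0.31 and not called (edgeR quasi-likelihood adjusted p = 0.239). Against the libraries labelled KO, Rasgrp1 and Map2k3 fell by 0.53 and 0.67 and Mapk14, which encodes p38 alpha, rose by 0.35 (edgeR quasi-likelihood adjusted p = 0.00495, 0.00347 and 0.0214). Leaving out anti-CD40L replicate 1 or 2 or labelled KO replicate 1 or 2, or fitting only these groups, ended the Mapk14 call, with BH-adjusted p from 0.00126 to 0.0779 over the alternatives. Against isotype wild type the log2 fold change of Mapk14 was 0.23 and not called (edgeR quasi-likelihood adjusted p = 0.0976), except in 2 of 17 alternatives.

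Serum response factor and its partners switch on Fos, and of 6 tested only Mrtfa, an actin-responsive coactivator, was called. Over all genes tested, 9.37% were called on anti-CD40L against isotype wild type and 6.83% against the libraries labelled KO. Mrtfa fell by 0.55 against isotype wild type and by 0.51 against the libraries labelled KO (SE 0.13 each; edgeR quasi-likelihood adjusted p = 0.0188 and 0.0305). The first call was lost without anti-CD40L replicate 1 or 2 or isotype wild-type replicate 1 or 3, with BH-adjusted p from 0.00016 to 0.102 over the alternatives. The second was lost without anti-CD40L replicate 1 or 2, labelled KO replicate 1 or 2 or isotype wild-type replicate 3, or in a fit of only these groups, with BH-adjusted p from 0.000858 to 0.157.

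Of 11 tested genes for degradation and corepression of AP-1, 1 rose and none fell on anti-CD40L against isotype in wild-type cells. This 1 of 11 is close to the 9.37% called over all genes in this comparison. Hdac7, a histone deacetylase of T cells, averaged 481 ± 12.9 CPM in anti-CD40L and 370 ± 40.9 CPM in isotype wild-type libraries (SD, n = 3 each). It rose by 0.38 (SE 0.1; edgeR quasi-likelihood adjusted p = 0.036), a call lost without any 1 library of these groups, with BH-adjusted p from 0.00173 to 0.128 over the alternatives. Against the libraries labelled KO the log2 fold change of Hdac7 was 0.33 and not called (edgeR quasi-likelihood adjusted p = 0.0756), except in 3 of 17 alternatives.

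Among 11 tested partners of AP-1 and BATF at composite sites, 1 rose and 2 fell on anti-CD40L against isotype in wild-type cells. Over all genes, 9.37% were called in this comparison, 2.91% higher and 6.46% lower. Irf4, the partner that BATF recruits, was at 2405, 2308 and 2347 CPM in anti-CD40L libraries and at 1310.2, 1551 and 1633 CPM in isotype wild-type libraries. Its log2 fold change came to 0.65 (SE 0.1; edgeR quasi-likelihood adjusted p = 0.0011), while that of Batf was 0.25 and not called. Irf4 was at 1507, 1476 and 1748 CPM in libraries labelled KO and rose by 0.58 against them (edgeR quasi-likelihood adjusted p = 0.00273). Ets1 and Runx1, partners at T cell enhancers, fell by 0.46 and 0.58 (SE 0.09 and 0.13; edgeR quasi-likelihood adjusted p = 0.00654 and 0.0148), and the Runx1 call was lost without anti-CD40L replicate 1 or isotype wild-type replicate 2 or 3, with BH-adjusted p from 6.45e-06 to 0.0694 over the alternatives. Runx1 fell by 0.76 against the libraries labelled KO (edgeR quasi-likelihood adjusted p = 0.00305), and Ets1 had a log2 fold change of -0.21 and was not called. Irf8, the other IRF partner of BATF proteins, was at 36.3, 37.3 and 42.8 CPM in anti-CD40L, 72.2, 58.0 and 59.0 CPM in labelled KO and 44.1, 39.8 and 39.6 CPM in isotype wild-type libraries. The libraries labelled KO lay above all others. Irf8 was lower by 0.71 on the log2 scale in anti-CD40L libraries than in the libraries labelled KO (SE 0.12; edgeR quasi-likelihood adjusted p = 0.00273). On anti-CD40L against isotype wild type the log2 fold change of Irf8 was -0.09, with overlap, and not called (edgeR quasi-likelihood adjusted p = 0.662). In the libraries labelled KO against isotype wild type its log2 fold change came to 0.61 (SE 0.12; edgeR quasi-likelihood adjusted p = 0.195), which DESeq2, edgeR without the filter and limma-voom with quality weights called at BH-adjusted p = 0.00238, 0.00185 and 0.0166, of a range up to 0.78.

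T cell genes with known AP-1 or BATF and IRF sites moved both ways. Of 19 tested among 30 listed, 3 rose and 3 fell on anti-CD40L against isotype in wild-type cells, and 3 rose and 6 fell against the libraries labelled KO. Over all genes tested, 9.37% were called against isotype wild type, 2.91% higher and 6.46% lower. Against the libraries labelled KO 6.83% were called, 1.79% higher and 5.04% lower. The list was chosen with earlier results of these data known, so setting its counts beside these shares does not measure an excess. Il2, the growth factor gene with AP-1 and NFAT sites, was at 15.4, 11.1 and 32.1 CPM in anti-CD40L, 6.72, 8.27 and 8.08 CPM in labelled KO and 6.27, 3.99 and 4.7 CPM in isotype wild-type libraries. It rose against both, by 1.93 against isotype wild type and by 1.3 against the libraries labelled KO (SE 0.35 and 0.33; edgeR quasi-likelihood adjusted p = 0.00398 and 0.0308). The call against the libraries labelled KO was lost without anti-CD40L replicate 3, at a log2 fold change of 0.79, without any 1 library labelled KO, and in a fit of only these groups. Its BH-adjusted p ran from 3.72e-06 to 0.102 over the alternatives.

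Vim, which encodes the filament protein vimentin, was at 4.39, 3.35 and 1.34 CPM in anti-CD40L, 18.1, 15.1 and 11.3 CPM in labelled KO and 14.7, 11.5 and 12.8 CPM in isotype wild-type libraries. It fell by 2.01 against isotype wild type and by 2.18 against the libraries labelled KO (SE 0.31 each; edgeR quasi-likelihood adjusted p = 0.0014 and 0.000853). Plaur, the urokinase receptor gene, averaged 2.48 ± 1.49 CPM in anti-CD40L, 11.6 ± 1.74 in labelled KO and 7.41 ± 0.364 in isotype wild-type libraries (SD, n = 3 each). It fell by 1.47 against isotype wild type and by 2.1 against the libraries labelled KO (edgeR quasi-likelihood adjusted p = 0.0176 and 0.00202). Without any 1 isotype wild-type library the call against them was lost, with BH-adjusted p from 7.64e-05 to 0.0598 over the alternatives.

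Bcl6, the factor of follicular helper cells, averaged 48.9 ± 14.6 CPM in anti-CD40L, 97.3 ± 1.14 in labelled KO and 85.6 ± 21.7 in isotype wild-type libraries (SD, n = 3 each). It fell by 0.8 against isotype wild type, whose libraries it overlapped, and by 0.98 against the libraries labelled KO (edgeR quasi-likelihood adjusted p = 0.0234 and 0.0085). Against isotype wild type the call was lost without anti-CD40L replicate 1 or 3 or isotype wild-type replicate 2 or 3 and in limma-voom with quality weights, with BH-adjusted p from 1.23e-09 to 0.111. The call against the libraries labelled KO was lost without anti-CD40L replicate 3, with BH-adjusted p from 1.88e-14 to 0.057.

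Il2ra, which encodes the alpha chain of the IL-2 receptor, averaged 838 ± 28.7 CPM in anti-CD40L and 629 ± 44.4 CPM in isotype wild-type libraries (SD, n = 3 each) and rose by 0.41 (edgeR quasi-likelihood adjusted p = 0.00702). In libraries labelled KO it averaged 710.3 ± 46.8 CPM, and the log2 fold change of 0.24 against them was not called (edgeR quasi-likelihood adjusted p = 0.1), except in 3 of 17 alternatives. Lif, a cytokine gene, averaged 11.7 ± 2.76 CPM in anti-CD40L, 5.24 ± 2.12 in labelled KO and 4.71 ± 1.69 in isotype wild-type libraries (SD, n = 3 each). It rose by 1.33 against isotype wild type and by 1.19 against the libraries labelled KO (edgeR quasi-likelihood adjusted p = 0.0242 and 0.0436). The first call was lost without anti-CD40L replicate 1 or isotype wild-type replicate 1 or 2, with BH-adjusted p from 0.000128 to 0.109 over the alternatives. The second was lost without anti-CD40L replicate 1 or 3, labelled KO replicate 2 or 3 or isotype wild-type replicate 1 or 2, or in a fit of only these groups, with BH-adjusted p from 0.000759 to 0.192. Ctla4, an inhibitory receptor gene, averaged 22.1 ± 3.65 CPM in anti-CD40L and 10.5 ± 0.436 CPM in labelled KO libraries (SD, n = 3 each) and rose by 1.06 (edgeR quasi-likelihood adjusted p = 0.014). That call was lost without anti-CD40L replicate 1 or labelled KO replicate 1 or 2, with BH-adjusted p from 1.23e-05 to 0.0671. Isotype wild-type libraries averaged 13.9 ± 4.97 CPM of Ctla4 and overlapped the anti-CD40L libraries, with a log2 fold change of 0.66 that was not called (edgeR quasi-likelihood adjusted p = 0.089), except in 2 of 17 alternatives.

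**Figure D4:**
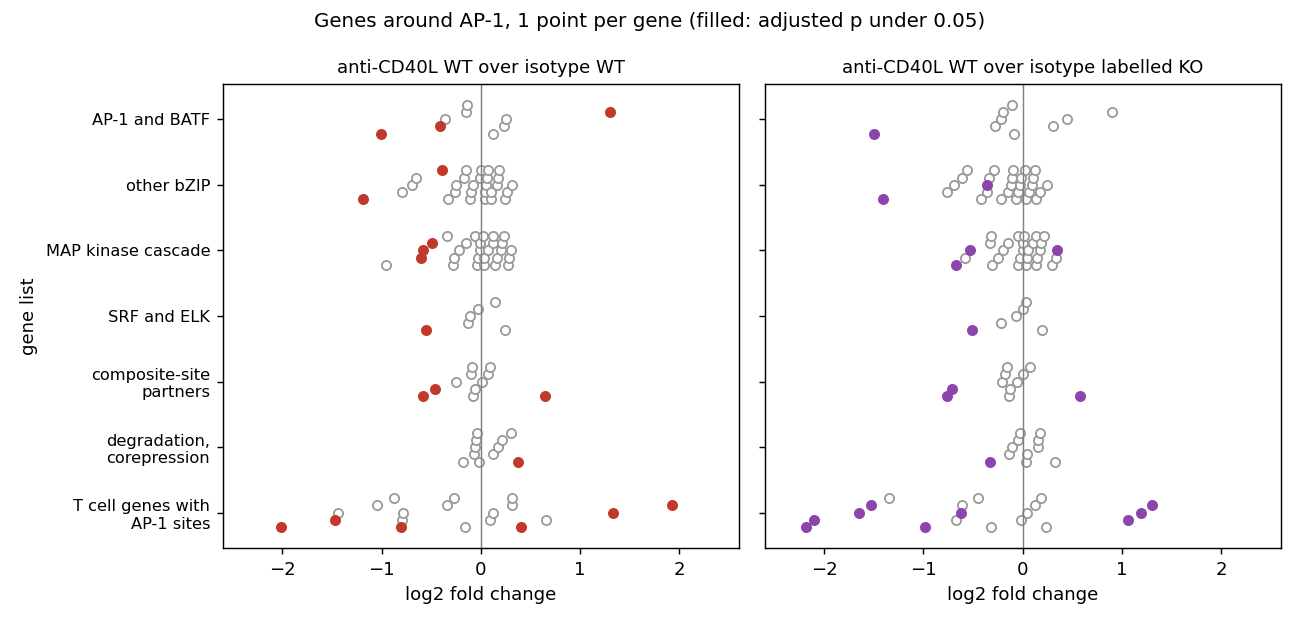
Log2 fold change (horizontal axis) of each tested gene of the 7 lists (rows) on anti-CD40L in wild-type cells, against isotype wild type (left) and against isotype libraries labelled KO (right), filled where the adjusted p was under 0.05. Most points lie near 0, and the widest spread is in the T cell genes with AP-1 sites, from -2.01 for Vim to 1.93 for Il2 on the left.

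In the libraries labelled KO against isotype wild type, no gene of the 6 lists beside the members was called by edgeR with the filter, while Irf8 was called without it, as given above. Their median log2 fold changes were 0.09 for other zipper factors, -0.01 for the MAP kinase cascade, -0.04 for serum response factor and its partners, 0.07 for composite-site partners, 0.05 for degradation and corepression and 0.16 for T cell genes with AP-1 sites, beside 0.0 over all genes tested. On anti-CD40L against isotype wild type the median was -0.07 for serum response factor and its partners, -0.08 for composite-site partners, -0.02 for degradation and corepression and -0.27 for T cell genes with AP-1 sites, beside -0.01 over all genes. Against the libraries labelled KO it was -0.1 for other zipper factors, 0.01 for the MAP kinase cascade, -0.03 for serum response factor and its partners, -0.14 for composite-site partners, 0.03 for degradation and corepression and -0.45 for T cell genes with AP-1 sites, beside -0.01 over all genes. These medians are description only, since the lists were chosen with earlier results of these data known.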

How the data were processed

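CD4+ T cells of 3 groups, sorted as naive and then cultured on antibody to CD3e, were sequenced as 9 mRNA libraries. The authors deposited expected counts, 1 value per RefSeq transcript and library for 42361 transcripts, all multiples of 0.5 and unscaled. The submitters' processing notes name CASAVA 1.8.2, HISAT2 2.1.0 and mm10. No source used here names the counter, its strand setting or its treatment of multiply aligned reads, so genes that overlap or face each other on opposite strands are uncertain.

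Symbols came from RefSeq (GRCm38.p6) for 42203 transcripts and from GENCODE vM21 for 65, and 93 kept their identifier. The transcript of highest total stood for its gene and was rounded to a whole count, 0.5 upward, where the design had assumed whole counts. In edgeR 4.0.16 (R 4.3.3), filterByExpr kept 11256 genes, TMM scaled the libraries, and a robust quasi-likelihood test with 1 term per group over all 9 libraries gave p-values, adjusted by Benjamini-Hochberg over all genes tested, with a threshold of 0.05. The code was tested on simulated data. SE is the log2 fold change over the square root of F, and CPM uses TMM-scaled library sizes. Alternatives were DESeq2 1.42.0, limma-voom (limma 3.58.1), other scalings, no filter, the mean of all transcripts of a gene, a replicate block, fits of 2 groups and single libraries left out.

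All 10 members are named whatever their result, with Irf4, Irf8, Jdp2 and Il2, up to 3 called genes per direction of each list and 3 genes most like each called member. The members and lists were chosen with earlier results of these data known. A called list gene that this rule names is not reported here.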

Additional observations from a re-analysis of the deposited data

How the results depend on the processing

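Fosl2 was called lower on anti-CD40L in every alternative run, against isotype wild type and against the libraries labelled KO. The number of members called on anti-CD40L against isotype wild type, 3, ran from 1 (without anti-CD40L replicate 1 or isotype wild-type replicate 2) to 3 as single libraries were left out, and no other setting altered it. Against the libraries labelled KO, 1 member was called, 2 by DESeq2, 2 without the filter, 3 by limma-voom with quality weights and 1 to 2 with a library left out. In the libraries labelled KO against wild type, 0 members were called, 0 with a library left out and 1 without the filter.

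Of all genes, 1055 were called on anti-CD40L against isotype wild type, 1625 by DESeq2, 1698 without the filter and 486 to 1342 with a library left out. Against the libraries labelled KO, 769 were called, 1219 by DESeq2, 1305 without the filter, 1458 by limma-voom with quality weights, 481 in a fit of only these groups and 346 to 1022 with a library left out. In the libraries labelled KO against wild type, 0 were called, 39 by DESeq2, 102 without the filter, 38 by limma-voom with quality weights, 3 in a fit of only these groups and 0 to 2 with a library left out. Without anti-CD40L replicate 1 or isotype wild-type replicate 1, 2 or 3, 486, 495, 545 and 530 genes were called against isotype wild type. Without anti-CD40L replicate 1 or labelled KO replicate 1 or 2, 448, 447 and 346 were called against the libraries labelled KO. The cause was not tested.

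The main test treated the libraries as unpaired. Same-numbered deviations from the group means correlated between -0.34 and 0.269 over 8208 genes. With 3 libraries per group, these values cannot tell whether same-numbered libraries belong together. With the replicate number as a block, 954 genes and 3 members were called on anti-CD40L against isotype wild type, 664 genes and 1 member against the libraries labelled KO, and 0 genes and 0 members in the libraries labelled KO against wild type. The uncalled log2 fold changes of Fosl1 and Jun on anti-CD40L against isotype wild type, of Fosb, Jun and Junb in the libraries labelled KO against wild type and of Junb between anti-CD40L and labelled KO changed sign in 1 or 2 of 17 alternatives each. Low counts limit Batf3, at 0 in every library, and Fosb, Jun and Atf3, whose intervals are wide.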
